A study of Mus musculus with 6 samples.

Results

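The 9 genes described here are effectors, regulators and targets of the Hippo pathway: the targets Ccn1, Ccn2 and Ankrd1, the target and inhibitor Amotl2, the coactivators Yap1 and Wwtr1, the DNA-binding factor Tead1, the kinase gene Lats2 and the LIM protein gene Ajuba. They were picked by symbol, and all 9 were found among the 17030 genes of the deposited table. All 9 were among the 14763 genes with a CPM of 1 or more in 3 or more libraries, where CPM stands for counts per 1000000 reads assigned to genes, the set that was tested. The choice was made with the difference between the genotypes already known, so that difference is given for them as a description.

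RNA-seq was run on mononuclear cells of skeletal muscle from 6 male mice of the strain given as C57BL/B6, 3 of each genotype. The first group, Pax7 Cre ErT x IKKbfl/fl, carried floxed alleles of Ikbkb, which encodes the NF-kB-activating kinase IKKb, together with a tamoxifen-inducible Cre under Pax7, a gene of satellite cells, the muscle stem cells. The second group, IKKbfl/fl, carried the floxed alleles without that Cre. All 6 mice bore LLC (Lewis lung carcinoma) tumours, and the labels give tamoxifen on days 10 to 14 after injection of the tumour cells for both genotypes. No mice with Cre and without floxed alleles were analysed here, so the Cre and the deletion cannot be told apart. No tumour-free mice were analysed here either, and the labels give no age. The RNA came from all mononuclear cells, while the Cre is expected only where Pax7 is expressed.

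In the Hippo pathway, LATS kinases phosphorylate the coactivators YAP and TAZ and hold them out of the nucleus. Unphosphorylated YAP and TAZ enter the nucleus, bind TEAD factors on DNA and raise the transcription of genes such as CCN1, CCN2, ANKRD1 and AMOTL2. The pathway responds to cell contact, stretch and the actin cytoskeleton, and in muscle YAP is known for promoting the proliferation of activated satellite cells.

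The libraries held an estimated 9512000, 13355000 and 4913000 assigned reads in Pax7 Cre ErT x IKKbfl/fl replicates 1 to 3 and 5982000, 7423000 and 4054000 in IKKbfl/fl replicates 1 to 3. IKKbfl/fl replicate 3 stood apart: it lay at 51.6 on the first principal component, with the other 5 libraries between -17.0 and 0.20, and 12.6% of its reads came from haemoglobin genes, against 1.84% to 4.83% in the others. Ikbkb had 51.4, 48.4 and 52.7 CPM in Pax7 Cre ErT x IKKbfl/fl mice, against 51.3, 57.4 and 48.8 CPM in IKKbfl/fl mice, and the 2 sets overlapped. Pax7 had 14.4, 16.3 and 19.3 CPM in Pax7 Cre ErT x IKKbfl/fl mice, against 16.5, 21.6 and 10.9 CPM in IKKbfl/fl mice. A whole-gene level in mixed cells does not show whether the floxed part was lost in satellite cells. All 12 satellite cell markers were in the table, with a summed level of 971 to 1080 CPM in Pax7 Cre ErT x IKKbfl/fl libraries and 954 to 1067 CPM in IKKbfl/fl libraries. In Pax7 Cre ErT x IKKbfl/fl replicate 1, Spry1, Des and Sdc4 gave 313, 241 and 206 CPM of it, against 14.4 for Pax7 and 14.2 for Myf5. The sum therefore says little about genes such as Pax7, and Des is also in the pericyte and smooth muscle list. Endothelial markers summed to 7705 to 8580 CPM in Pax7 Cre ErT x IKKbfl/fl libraries and 6923 to 9724 CPM in IKKbfl/fl libraries, and pericyte and smooth muscle markers to 10197 to 12713 CPM in Pax7 Cre ErT x IKKbfl/fl libraries and 7956 to 10072 CPM in IKKbfl/fl libraries. In such mixed RNA, fewer cells of a type and less RNA per cell cannot be told apart.

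The promoters of the members are shown because these genes were picked as TEAD factors, partners and targets, and the letters that TEAD factors bind can be looked for in them. TEAD factors bind the letters GGAATG, and RefSeq promoter windows of the build GRCm38.p6, running from 250 bases before the transcription start to 50 after it, were available for 7 of the 9 genes. All 7 genes held GGAATG on one strand or the other in at least 1 window, against 14.7% of all 32851 windows and 1724 of the 11628 tested genes with a window (14.8%). The longer M-CAT letters CATTCCT, which contain the TEAD motif on the opposite strand, were found in 5 of the 7 genes, against 5.36% of all windows and 5.28% of the tested genes with a window. Outside the members the TEAD motif was in 3 of 4 LIM protein genes, 4 of 6 TEAD and VGLL genes, 3 of 11 other published YAP targets and 4 of 21 Hippo kinases and upstream regulators. Below are the windows of the targets Ccn1, Ankrd1 and Amotl2, of the coactivator gene Yap1 and of the kinase gene Lats2, read 5′ to 3′ on the gene's strand, with the TEAD motif and, in Lats2, also a kappaB box in capitals. They lie on chr3:145649936-145650235 (minus strand, Ccn1), chr19:36119795-36120094 (minus strand, Ankrd1), chr9:102717554-102717853 (plus strand, Amotl2), chr9:8004547-8004846 (minus strand, Yap1) and chr14:57746074-57746373 (minus strand, Lats2).
Ccn1: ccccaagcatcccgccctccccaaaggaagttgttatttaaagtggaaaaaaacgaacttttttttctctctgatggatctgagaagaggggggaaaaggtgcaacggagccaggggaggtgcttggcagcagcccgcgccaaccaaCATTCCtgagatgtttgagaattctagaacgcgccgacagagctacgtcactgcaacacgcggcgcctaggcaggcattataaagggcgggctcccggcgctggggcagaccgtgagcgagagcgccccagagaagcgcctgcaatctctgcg
Ankrd1: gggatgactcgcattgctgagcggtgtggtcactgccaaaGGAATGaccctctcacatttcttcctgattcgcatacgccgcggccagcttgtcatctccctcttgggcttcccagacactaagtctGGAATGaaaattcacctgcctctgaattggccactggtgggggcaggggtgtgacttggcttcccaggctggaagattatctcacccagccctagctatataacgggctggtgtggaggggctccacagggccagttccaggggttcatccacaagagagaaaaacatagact
Amotl2: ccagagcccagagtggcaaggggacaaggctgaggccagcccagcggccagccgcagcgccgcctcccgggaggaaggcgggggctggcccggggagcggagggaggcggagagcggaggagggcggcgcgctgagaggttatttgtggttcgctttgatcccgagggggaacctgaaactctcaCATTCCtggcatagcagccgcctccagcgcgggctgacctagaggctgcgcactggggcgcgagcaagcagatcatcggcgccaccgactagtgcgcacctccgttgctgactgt
Yap1: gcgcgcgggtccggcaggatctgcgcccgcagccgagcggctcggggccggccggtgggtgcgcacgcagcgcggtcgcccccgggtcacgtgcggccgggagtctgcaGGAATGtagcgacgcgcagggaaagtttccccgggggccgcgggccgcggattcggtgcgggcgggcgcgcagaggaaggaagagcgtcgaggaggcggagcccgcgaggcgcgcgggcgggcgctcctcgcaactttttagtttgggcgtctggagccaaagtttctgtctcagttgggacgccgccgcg
Lats2: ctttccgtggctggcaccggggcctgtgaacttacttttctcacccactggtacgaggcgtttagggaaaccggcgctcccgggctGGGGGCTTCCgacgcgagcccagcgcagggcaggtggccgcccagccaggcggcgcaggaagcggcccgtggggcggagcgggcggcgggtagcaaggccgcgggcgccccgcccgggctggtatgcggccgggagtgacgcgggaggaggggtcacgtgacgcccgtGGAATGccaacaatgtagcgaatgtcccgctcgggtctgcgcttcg

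In the Ccn1 window the motif began 103 bases before the start and was read as CATTCC, and in the Amotl2 window it began 65 bases before it, also as CATTCC. Ankrd1 held it at 210 and at 123 bases before the start, both times as GGAATG. Yap1 held it as GGAATG at 141 bases before the start. In Lats2 it lay within the bases after the start. Of the genes not printed, Wwtr1 held the motif in each of its 2 overlapping windows and Ajuba held it in 2 places. The AP-1 letters TGANTCA were in 0 of the 7 genes, against 6.48% of the tested genes with a window, and the CArG box of serum response factor (SRF) was in 0 of 7, against 1.68% of those genes. The kappaB box, bound by NF-kB, was in 1 of the 7 genes, Lats2, and in 12.4% of the tested genes with a window, so that the count is near that share. Both strands were searched for each motif. A match describes the letters of a window and is no measurement of binding, and no match says only that the letters are not in that window.

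Among the targets, Ccn1 and Ccn2 encode secreted matricellular proteins of the CCN family, known as CYR61 and CTGF. Ccn1 (chr3:145646971-145649986 on mm10, minus strand) had 630.4, 665 and 466 CPM in Pax7 Cre ErT x IKKbfl/fl replicates 1 to 3, against 390.5, 405 and 221 CPM in IKKbfl/fl replicates 1 to 3. Every Pax7 Cre ErT x IKKbfl/fl library lay above every IKKbfl/fl library, and IKKbfl/fl replicate 3 was the lowest. The means were 587 ± 106 CPM in Pax7 Cre ErT x IKKbfl/fl mice and 339 ± 102 CPM in IKKbfl/fl mice (SD, n = 3 each, as for all values with ± here), a log2 fold change of 0.82 (SE 0.24) on log2(CPM + 1) and a ratio of means of 1.73. The replicates of a genotype spanned 0.51 in Pax7 Cre ErT x IKKbfl/fl mice and 0.87 in IKKbfl/fl mice on the same log2 scale. An estimated 897 to 8879 reads lay behind each Ccn1 value, a counting SD of 1.06% to 3.34%. Without IKKbfl/fl replicate 3 the log2 fold change of Ccn1 was 0.54, and without both that library and Pax7 Cre ErT x IKKbfl/fl replicate 1 it was 0.48. The genotypes stayed apart for Ccn1 with the library factors of TMM and of the median of ratios.

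Ccn2 (chr10:24595442-24598683, plus strand) had 221, 248 and 142 CPM in Pax7 Cre ErT x IKKbfl/fl mice, against 189, 122 and 137 CPM in IKKbfl/fl mice. The genotypes overlapped, since Pax7 Cre ErT x IKKbfl/fl replicate 3 lay below IKKbfl/fl replicate 1. The means were 204 ± 55.2 CPM in Pax7 Cre ErT x IKKbfl/fl mice and 149.7 ± 35.2 CPM in IKKbfl/fl mice, a log2 fold change of 0.43 (SE 0.23). It was 0.27 without Pax7 Cre ErT x IKKbfl/fl replicate 2 and 0.67 without Pax7 Cre ErT x IKKbfl/fl replicate 3. Ccn1 was 2.85, 2.68 and 3.29 times Ccn2 in CPM in the Pax7 Cre ErT x IKKbfl/fl libraries, against 2.06, 3.31 and 1.61 times in the IKKbfl/fl libraries. Exons of Ccn2 overlap those of Gm15270, an opposite-strand gene with a mean of 0.341 CPM, and whether counting used strand is not given in the sources used here.

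Ankrd1 encodes a muscle ankyrin repeat protein that binds titin and also acts in the nucleus. Ankrd1 (chr19:36111965-36119845, minus strand) had 2.84, 2.47 and 1.02 CPM in Pax7 Cre ErT x IKKbfl/fl mice, against 1.34, 1.89 and 1.73 CPM in IKKbfl/fl mice. Its level overlapped between the genotypes, with both the highest and the lowest library in Pax7 Cre ErT x IKKbfl/fl mice. These values rest on an estimated 5 to 33 reads per library. The exact 95% Poisson intervals were 0.330 to 2.37 CPM in Pax7 Cre ErT x IKKbfl/fl replicate 3 and 1.87 to 4.13 CPM in Pax7 Cre ErT x IKKbfl/fl replicate 1, and they cover counting error only. The means were 2.11 ± 0.963 CPM in Pax7 Cre ErT x IKKbfl/fl mice and 1.65 ± 0.282 CPM in IKKbfl/fl mice, a log2 fold change of 0.18 (SE 0.31). It was 0.0036, 0.076 and 0.47 without Pax7 Cre ErT x IKKbfl/fl replicate 1, 2 or 3 in turn, and 0.095 without IKKbfl/fl replicate 1.

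**Figure D1:**
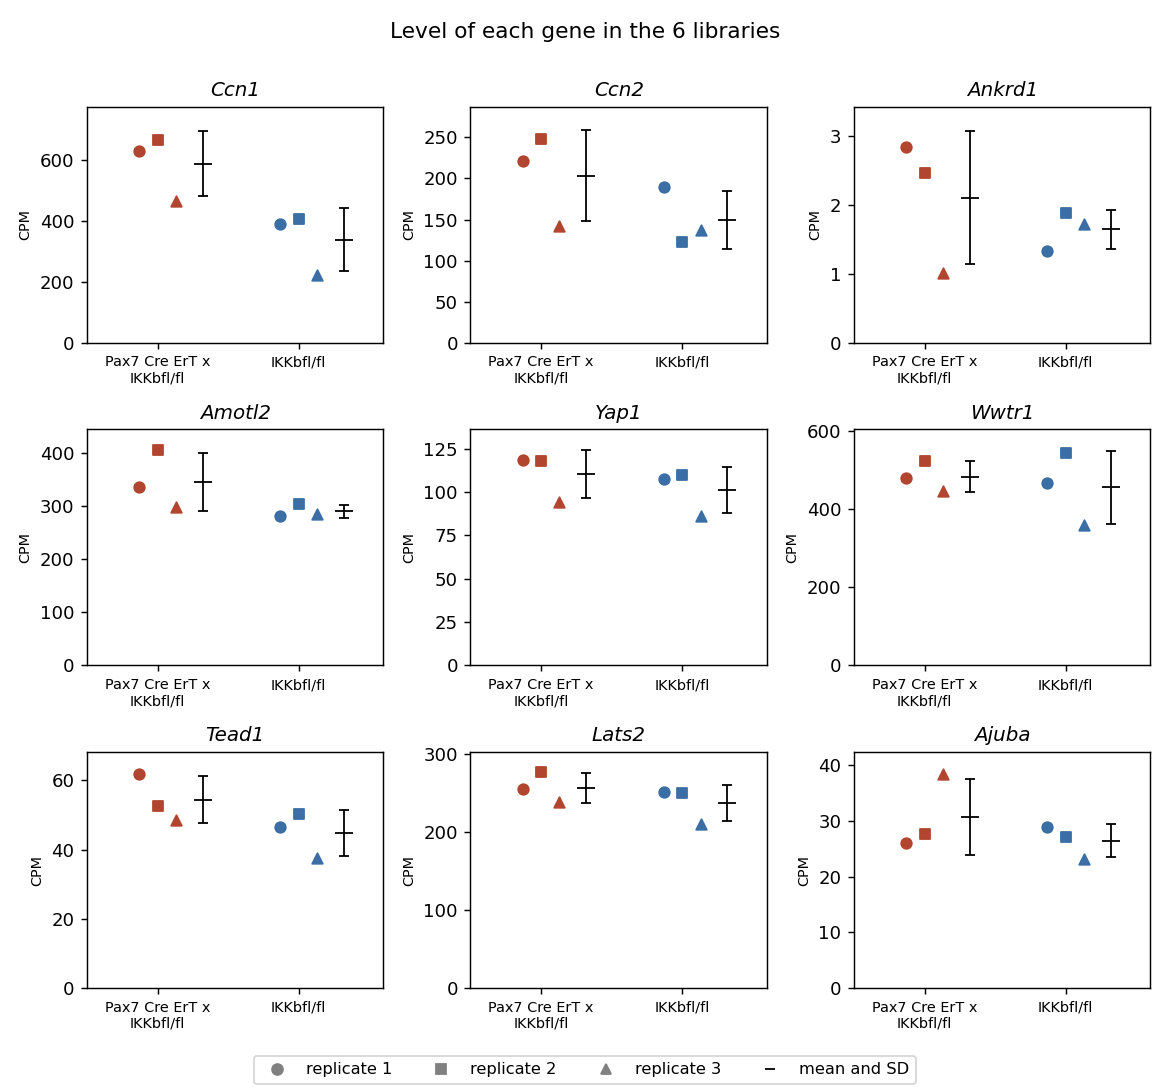
Each panel plots the level of 1 gene in CPM in the 6 libraries, with Pax7 Cre ErT x IKKbfl/fl on the left and IKKbfl/fl on the right. Symbols are the replicates, and the bar with caps is the mean and SD of the 3 mice. Only in the Ccn1 panel do all 3 Pax7 Cre ErT x IKKbfl/fl libraries (466 to 665 CPM) lie above all 3 IKKbfl/fl libraries (221 to 405 CPM).

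Amotl2 encodes an angiomotin family protein that binds YAP and holds it out of the nucleus, and is itself a YAP target. Amotl2 (chr9:102717804-102733418, plus strand) had 335, 404 and 297 CPM in Pax7 Cre ErT x IKKbfl/fl mice, against 282, 304 and 284 CPM in IKKbfl/fl mice. The IKKbfl/fl libraries lay close together, and Pax7 Cre ErT x IKKbfl/fl replicate 3 lay among them. The means were 346 ± 54.5 CPM in Pax7 Cre ErT x IKKbfl/fl mice and 289.9 ± 12.2 CPM in IKKbfl/fl mice, a log2 fold change of 0.24 (SE 0.15), against 0.12 without Pax7 Cre ErT x IKKbfl/fl replicate 2.

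For both coactivators the genotypes overlapped. Exons of Yap1 overlap those of the opposite-strand gene Gm20416, which has no values here, and the strand setting of the counting is not given in the sources used here. Yap1 (chr9:7932001-8004597, minus strand) had 119, 118 and 94.4 CPM in Pax7 Cre ErT x IKKbfl/fl mice, against 107, 109.8 and 86.1 CPM in IKKbfl/fl mice. In each genotype replicate 3 was the lowest, and the replicate numbers pair no mice. The log2 fold change of Yap1 was 0.12 (SE 0.15), with means of 110.3 ± 13.7 CPM in Pax7 Cre ErT x IKKbfl/fl mice and 101 ± 13.1 CPM in IKKbfl/fl mice. It was 0.069, 0.073 and 0.23 without Pax7 Cre ErT x IKKbfl/fl replicate 1, 2 or 3 in turn, 0.19 without IKKbfl/fl replicate 2 and 0.014 without IKKbfl/fl replicate 3. Wwtr1, which encodes TAZ (chr3:57455644-57575911, minus strand), had 481, 525 and 447 CPM in Pax7 Cre ErT x IKKbfl/fl mice, against 467, 546 and 359 CPM in IKKbfl/fl mice. Both the highest and the lowest Wwtr1 value were in IKKbfl/fl mice. Its means were 484 ± 39.1 CPM in Pax7 Cre ErT x IKKbfl/fl mice and 457 ± 93.6 CPM in IKKbfl/fl mice, and its log2 fold change was 0.10 (SE 0.17). It was -0.063 without IKKbfl/fl replicate 3, 0.24 without IKKbfl/fl replicate 2, 0.041 without Pax7 Cre ErT x IKKbfl/fl replicate 2 and 0.16 without Pax7 Cre ErT x IKKbfl/fl replicate 3.

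Tead1 (chr7:112679356-112906785, plus strand) had 61.9, 52.7 and 48.6 CPM in Pax7 Cre ErT x IKKbfl/fl mice, against 46.6, 50.25 and 37.5 CPM in IKKbfl/fl mice. The genotypes overlapped in 1 place, where Pax7 Cre ErT x IKKbfl/fl replicate 3 lay below IKKbfl/fl replicate 2. The means were 54.4 ± 6.80 CPM in Pax7 Cre ErT x IKKbfl/fl mice and 44.8 ± 6.57 CPM in IKKbfl/fl mice, a log2 fold change of 0.28 (SE 0.16). It was 0.18 without Pax7 Cre ErT x IKKbfl/fl replicate 1 and 0.16 without IKKbfl/fl replicate 3. The ratio of Tead1 to Tead2 in CPM was 2.53, 2.09 and 1.77 in Pax7 Cre ErT x IKKbfl/fl libraries, against 1.63, 1.42 and 1.06 in IKKbfl/fl libraries, with no overlap. Tead2, another TEAD factor gene, was lower in Pax7 Cre ErT x IKKbfl/fl mice without overlap, as given with its list. The ratio therefore restates the levels of both genes, and nothing further is read from its lack of overlap.

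Of the regulators, Lats2 encodes a kinase that phosphorylates YAP and TAZ, and its gene is known as a YAP target. Lats2 (chr14:57689662-57746124, minus strand) had 255, 277 and 238 CPM in Pax7 Cre ErT x IKKbfl/fl mice, against 251, 250.4 and 211 CPM in IKKbfl/fl mice. The sets overlapped, and the log2 fold change was 0.11 (SE 0.13), with means of 256 ± 19.4 CPM in Pax7 Cre ErT x IKKbfl/fl mice and 237 ± 23.1 CPM in IKKbfl/fl mice. It was 0.057 without Pax7 Cre ErT x IKKbfl/fl replicate 2 and 0.029 without IKKbfl/fl replicate 3. The exons of Lats2 overlap those of Gm49361 on the same strand, a gene with no values here. Ajuba encodes a LIM protein that restrains LATS kinases. Ajuba (chr14:54567469-54577662, minus strand) had 26.0, 27.7 and 38.5 CPM in Pax7 Cre ErT x IKKbfl/fl mice, against 28.9, 27.2 and 23.2 CPM in IKKbfl/fl mice. It was the member whose highest value was in Pax7 Cre ErT x IKKbfl/fl replicate 3. Its means were 30.7 ± 6.77 CPM in Pax7 Cre ErT x IKKbfl/fl mice and 26.4 ± 2.94 CPM in IKKbfl/fl mice, a log2 fold change of 0.19 (SE 0.18), against 0.026 without that library, 0.30 without Pax7 Cre ErT x IKKbfl/fl replicate 1 and 0.11 without IKKbfl/fl replicate 3.

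All 9 members had the higher mean in Pax7 Cre ErT x IKKbfl/fl mice, with a median log2 fold change of 0.19. Over the 14763 tested genes the median was 0.09, or 0.043 without IKKbfl/fl replicate 3, and 68.0% of genes were above 0. Of the 9, 0 passed limma at a Benjamini-Hochberg adjusted p under 0.05 and 1, Ccn1, had an unadjusted p under 0.05; over all genes 0.00677% passed in either direction and 815 genes had an unadjusted p under 0.05. Genotypes that did not overlap, higher in Pax7 Cre ErT x IKKbfl/fl, were seen for 1 of the 9 and for 8.69% of all tested genes. Since the members were chosen with this contrast known, nothing is read from these counts. The limma p-values and SEs rest on the spread between 3 mice of each genotype, moderated towards that of genes of like level. For Ccn1 the SD within genotypes on the log2 scale was 0.40, above that of 82.0% of tested genes. Its unadjusted limma p under 0.05 therefore rests partly on the spread of other genes. An exact permutation test of 3 against 3 cannot give a p below 0.1. The median over the 9 members was 0.34 without Pax7 Cre ErT x IKKbfl/fl replicate 3, 0.12 without Pax7 Cre ErT x IKKbfl/fl replicate 2, and 0.064 without Pax7 Cre ErT x IKKbfl/fl replicate 1 and IKKbfl/fl replicate 3 together.

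**Figure D2:**
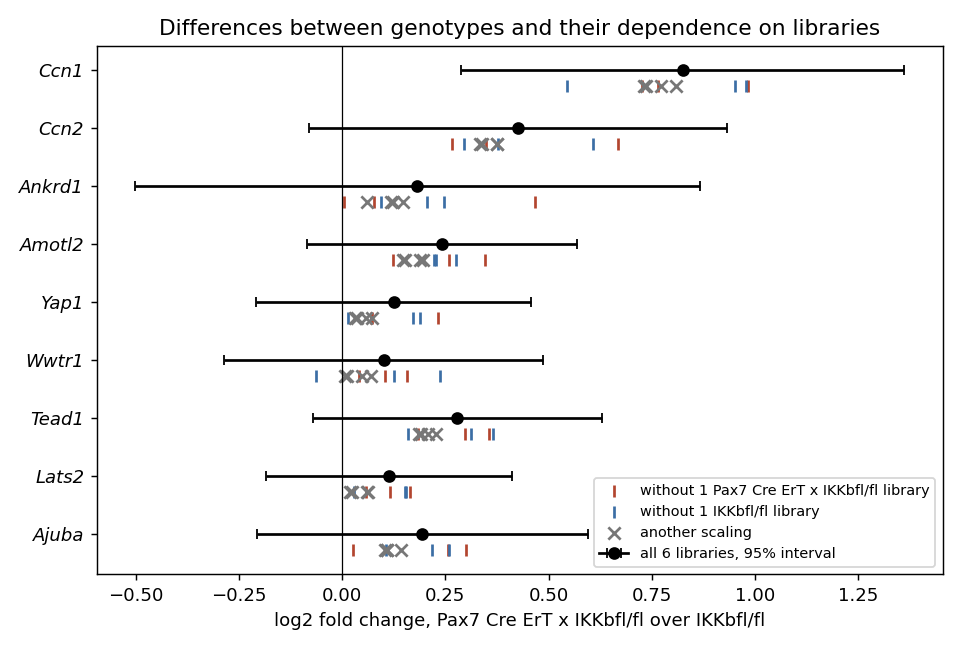
The horizontal axis is the log2 fold change of Pax7 Cre ErT x IKKbfl/fl over IKKbfl/fl for the 9 genes. Black points are the values with 6 libraries and bars their 95% intervals; ticks leave out 1 library and crosses use another scaling. Ccn1 lies at 0.82 and its ticks reach down to 0.54, while Wwtr1 lies at 0.10 and at -0.063 without 1 library.

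IKKbfl/fl replicate 3 was the lowest library for 6 of the 9, Pax7 Cre ErT x IKKbfl/fl replicate 2 the highest for 4 and replicate 1 of the same genotype the highest for 3. After each gene was centred on its mean over the 6 libraries, the median over the members was 0.17, 0.17 and -0.06 in the Pax7 Cre ErT x IKKbfl/fl libraries and 0.0008, 0.03 and -0.28 in the IKKbfl/fl libraries, on the log2 scale. The median over all tested genes was 0.06, 0.07 and 0.02 in the Pax7 Cre ErT x IKKbfl/fl libraries and 0.004, -0.005 and -0.12 in the IKKbfl/fl libraries. IKKbfl/fl replicate 3 was thus the lowest library for both. It was also the shallowest library and the one with the largest haemoglobin share, and the part of either in these values was not tested.

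**Figure D3:**
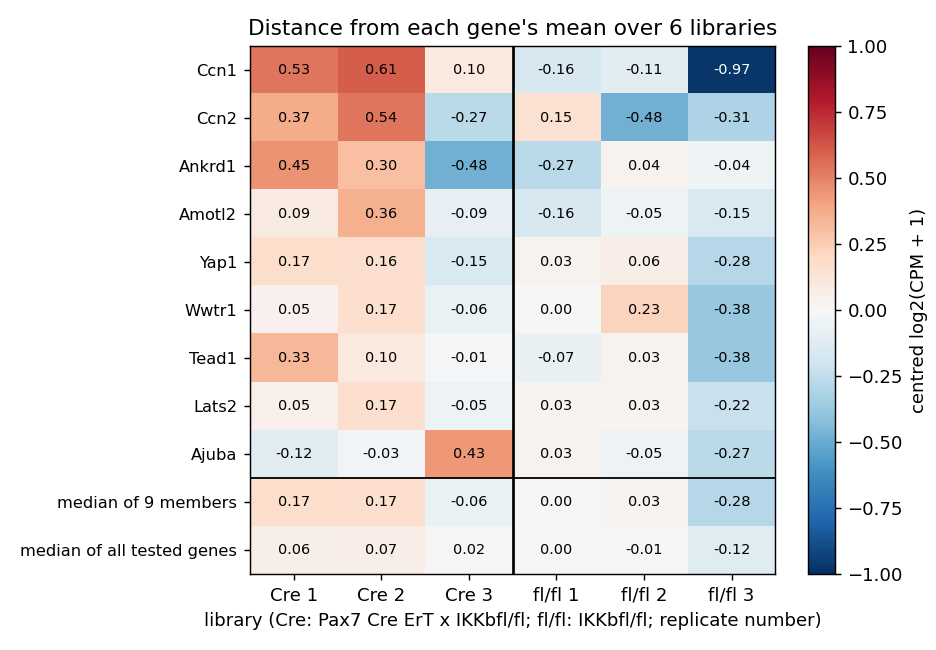
Each cell gives a gene's log2(CPM + 1) minus its mean over the 6 libraries, with the 3 Pax7 Cre ErT x IKKbfl/fl libraries on the left and the 3 IKKbfl/fl libraries on the right. The bottom lines are medians over the 9 genes and over all tested genes, and both are lowest in IKKbfl/fl replicate 3 (-0.28 and -0.12).

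Levels of different genes were compared per kb of exon, as a mean of all 6 libraries. Ccn1 was the most abundant member at 229 CPM per kb (110 to 329), followed by Wwtr1 at 98.5 (75.2 to 114), Ccn2 at 61.7 (42.7 to 86.6) and Amotl2 at 50.5 (44.8 to 64.3). Each of these 4 overlapped its neighbour in the order by its range over all 6 libraries, which does not compare the genes within each library. Lats2 at 35.4 CPM per kb (30.2 to 39.7) lay apart from both neighbours, Yap1 at 11.4 (9.30 to 12.8) and Ajuba at 7.84 (6.36 to 10.6) overlapped each other, and Tead1 at 3.66 (2.76 to 4.56) and Ankrd1 at 0.651 (0.353 to 0.984) each lay apart. Per kb of coding sequence 5 of the 9 kept their rank, and Tead1 at 37.9 CPM per kb lay above Ajuba at 17.4. In IKKbfl/fl mice alone, Ccn1 at 298 CPM per kb of coding sequence lay below Wwtr1 at 337, while per kb of exon Ccn1 at 168 lay above Wwtr1 at 95.7.

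**Figure D4:**
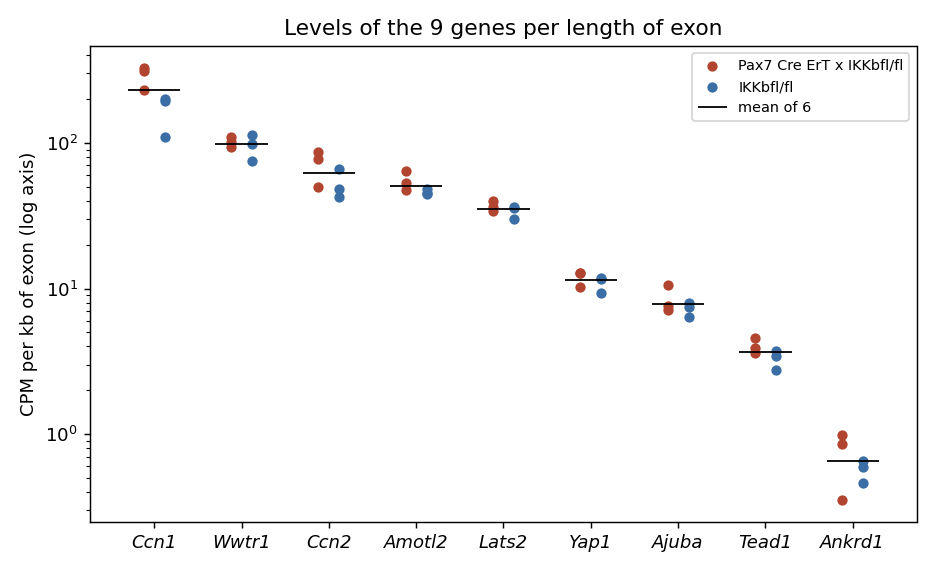
The vertical axis is CPM per kb of exon on a log axis, with the 9 genes ordered by their mean (line). Red points are the 3 Pax7 Cre ErT x IKKbfl/fl libraries and blue points the 3 IKKbfl/fl libraries. The order runs from Ccn1 at 229 to Ankrd1 at 0.651 CPM per kb.

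The remaining genes of the pathway were described by lists, and 0 genes of any list passed limma in either direction. For genes of the lists, overlap of the genotypes and the counts of higher and lower means were taken in CPM as deposited and not under other scalings. Over all tested genes, 68.0% were above 0, 8.69% were higher and 2.28% lower in Pax7 Cre ErT x IKKbfl/fl mice without overlap, and 815 of 14763 had an unadjusted p under 0.05. Of 23 tested Hippo kinases and upstream regulators, 22 had the higher mean in Pax7 Cre ErT x IKKbfl/fl mice, with a median log2 fold change of 0.18, and 1 had an unadjusted p under 0.05. The median was 0.067 without IKKbfl/fl replicate 3 and 0.12 without Pax7 Cre ErT x IKKbfl/fl replicate 2. With TMM factors it was 0.095 and with median-of-ratios factors 0.090. Some of the 22, such as Stk3 at 0.016 and Wwc2 at 0.037, lay below the median of all tested genes, 0.089. The count of higher means therefore depends on the scaling. The gene with that p was Fat1, an atypical cadherin gene, at 148.5 ± 21.6 CPM in Pax7 Cre ErT x IKKbfl/fl mice and 109.5 ± 19.8 CPM in IKKbfl/fl mice, a log2 fold change of 0.44 (adjusted p = 0.891). The cadherin gene Dchs1 averaged 126 ± 25.1 CPM in Pax7 Cre ErT x IKKbfl/fl mice and 96.3 ± 16.1 CPM in IKKbfl/fl mice, the angiomotin gene Amot 32.4 ± 4.91 CPM in Pax7 Cre ErT x IKKbfl/fl mice and 24.9 ± 5.54 CPM in IKKbfl/fl mice, and the tight junction gene Tjp1 642 ± 34.1 CPM in Pax7 Cre ErT x IKKbfl/fl mice and 564 ± 119 CPM in IKKbfl/fl mice. For these 3 and for Fat1 the genotypes overlapped. Of the 23 genes, 2 were higher in Pax7 Cre ErT x IKKbfl/fl mice without overlap, which is near the 8.69% of all tested genes.

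The TEAD and VGLL list held 1 gene below and 5 above 0 of 6 tested, of which Vgll4 changed sign under each of the 4 other scalings, with a median of 0.09 and 2 genes, Tead2 and Vgll3, at an unadjusted p under 0.05. The median was 0.049 without IKKbfl/fl replicate 1 and 0.19 without IKKbfl/fl replicate 2. Tead2 had 24.5, 25.2 and 27.5 CPM in Pax7 Cre ErT x IKKbfl/fl mice, against 28.6, 35.3 and 35.3 CPM in IKKbfl/fl mice. All 3 Pax7 Cre ErT x IKKbfl/fl libraries lay below, as did those of 2.28% of all tested genes, with a difference of -0.34 on the log2 scale (limma adjusted p = 0.891). Vgll3, a vestigial-like TEAD cofactor gene, had 33.8, 27.7 and 24.2 CPM in Pax7 Cre ErT x IKKbfl/fl mice, against 24.1, 21.4 and 16.3 CPM in IKKbfl/fl mice. Its libraries did not overlap in CPM as deposited, with 24.2 against 24.1 CPM at the nearest. It differed by 0.46 on the log2 scale (limma adjusted p = 0.891). Tead4 averaged 24.7 ± 3.92 CPM in Pax7 Cre ErT x IKKbfl/fl mice and 22.5 ± 2.32 CPM in IKKbfl/fl mice, and Vgll4 124 ± 11.1 CPM in Pax7 Cre ErT x IKKbfl/fl mice and 121 ± 8.39 CPM in IKKbfl/fl mice.

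The 3 other CCN genes that were tested overlapped between the genotypes, and 0 of them had an unadjusted p under 0.05. Ccn3 averaged 47.5 ± 19.4 CPM in Pax7 Cre ErT x IKKbfl/fl mice and 39.6 ± 2.31 CPM in IKKbfl/fl mice, Ccn4 16.5 ± 2.85 CPM in Pax7 Cre ErT x IKKbfl/fl mice and 14.3 ± 3.07 CPM in IKKbfl/fl mice, and Ccn5 5.63 ± 1.87 CPM in Pax7 Cre ErT x IKKbfl/fl mice and 4.22 ± 1.68 CPM in IKKbfl/fl mice. Ccn6 was below the filter and was not tested, at 0.421, 0.449 and 0.611 CPM in Pax7 Cre ErT x IKKbfl/fl mice, against 0.334, 0.135 and 0 CPM in IKKbfl/fl mice, with no overlap. As 1 read stands for 0.0749 to 0.247 CPM in the 6 libraries, these Ccn6 values rest on a few reads each, and nothing is read from their order. The median of the 3 tested genes, 0.20, was 0.090 without Pax7 Cre ErT x IKKbfl/fl replicate 1, 0.39 without Pax7 Cre ErT x IKKbfl/fl replicate 2 and 0.34 without IKKbfl/fl replicate 1. Of the 5 LIM protein genes of the Ajuba and zyxin families, 5 had the higher mean in Pax7 Cre ErT x IKKbfl/fl mice (median 0.19), of which Limd1 changed sign under each of the 4 other scalings, and 0 had an unadjusted p under 0.05. The median was 0.088 without IKKbfl/fl replicate 3. Lpp, a zyxin relative at cell adhesions, had 330.3 ± 8.74 CPM in Pax7 Cre ErT x IKKbfl/fl mice and 289 ± 24.1 CPM in IKKbfl/fl mice with no overlap, while Zyx (155 ± 27.9 CPM in Pax7 Cre ErT x IKKbfl/fl mice and 129.8 ± 34.2 CPM in IKKbfl/fl mice), Trip6 (24.6 ± 1.75 CPM in Pax7 Cre ErT x IKKbfl/fl mice and 20.6 ± 1.94 CPM in IKKbfl/fl mice) and Limd1 (225 ± 12.5 CPM in Pax7 Cre ErT x IKKbfl/fl mice and 224 ± 13.4 CPM in IKKbfl/fl mice) overlapped.

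Of 16 other published YAP targets, 12 had the higher and 4 the lower mean, with a median log2 fold change of 0.10, beside 0.09 for all genes, and 3 had an unadjusted p under 0.05. The median was -0.024 without Pax7 Cre ErT x IKKbfl/fl replicate 1, 0.20 without Pax7 Cre ErT x IKKbfl/fl replicate 3 and 0.054 without IKKbfl/fl replicate 3. The genotypes did not overlap for Myof, a ferlin gene, at 27.0 ± 1.94 CPM in Pax7 Cre ErT x IKKbfl/fl mice and 18.7 ± 1.04 CPM in IKKbfl/fl mice (log2 fold change 0.51, adjusted p = 0.891). The same held for Tgfb2, a TGF-beta ligand gene, at 44.2 ± 6.52 CPM in Pax7 Cre ErT x IKKbfl/fl mice and 30.0 ± 5.33 CPM in IKKbfl/fl mice, and for Rbms3, an RNA-binding protein gene, at 93.1 ± 11.1 CPM in Pax7 Cre ErT x IKKbfl/fl mice and 70.7 ± 5.77 CPM in IKKbfl/fl mice. For both, the nearest libraries were replicate 3 of each genotype. Pax7 Cre ErT x IKKbfl/fl replicate 3 had 37.9 CPM of Tgfb2 and 80.4 CPM of Rbms3, against 34.5 and 77.2 CPM in IKKbfl/fl replicate 3. The TMM factors that divide CPM were 1.01 and 0.922 in these libraries, so lack of overlap by such gaps depends on the scaling. Igfbp3, which encodes a binding protein of insulin-like growth factors, averaged 307 ± 103 CPM in Pax7 Cre ErT x IKKbfl/fl mice and 418 ± 99.4 CPM in IKKbfl/fl mice, with overlap. The muscle ankyrin repeat gene Ankrd23 averaged 54.7 ± 11.4 CPM in Pax7 Cre ErT x IKKbfl/fl mice and 40.4 ± 5.01 CPM in IKKbfl/fl mice with no overlap, and Ankrd2 2.10 ± 1.31 CPM in Pax7 Cre ErT x IKKbfl/fl mice and 0.641 ± 0.379 CPM in IKKbfl/fl mice with overlap. For Ankrd23 the nearest libraries were Pax7 Cre ErT x IKKbfl/fl replicate 2 at 45.6 CPM and IKKbfl/fl replicate 2 at 45.5 CPM. Ankrd2 was at 0.247 CPM in IKKbfl/fl replicate 3, the CPM of 1 read. The median of Ankrd23 and Ankrd2, 0.62, was 0.26 without Pax7 Cre ErT x IKKbfl/fl replicate 1 and 0.41 without IKKbfl/fl replicate 1.

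CCN1 and CCN2 are also known targets of SRF and are induced with immediate early genes, so both lists were set beside them. Of 16 genes of SRF, its MRTF cofactors and their actin cytoskeleton targets, 14 had the higher mean, with a median of 0.30, 7 were higher without overlap, against 8.69% of all tested genes, and 6 had an unadjusted p under 0.05. Acta2, Tagln, Cnn1 and Myl9 of this list are also counted among the pericyte and smooth muscle markers. Srf itself had 91.6, 98.6 and 89.4 CPM in Pax7 Cre ErT x IKKbfl/fl mice, against 68.2, 78.4 and 59.2 CPM in IKKbfl/fl mice. The genotypes lay apart, with a log2 fold change of 0.44 (adjusted p = 0.891). The smooth muscle gene Cnn1 averaged 20.2 ± 3.58 CPM in Pax7 Cre ErT x IKKbfl/fl mice and 11.2 ± 0.340 CPM in IKKbfl/fl mice without overlap, the myosin light chain gene Myl9 407 ± 65.6 CPM in Pax7 Cre ErT x IKKbfl/fl mice and 304 ± 17.7 CPM in IKKbfl/fl mice without overlap, and the actin gene Actb 3616 ± 406 CPM in Pax7 Cre ErT x IKKbfl/fl mice and 3069 ± 379 CPM in IKKbfl/fl mice with overlap.

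Of 20 immediate early and dissociation stress genes, 19 had the higher mean in Pax7 Cre ErT x IKKbfl/fl mice, with a median of 0.27, and 3 had an unadjusted p under 0.05. That median was 0.12 without IKKbfl/fl replicate 3, 0.45 without IKKbfl/fl replicate 2 and 0.010 without Pax7 Cre ErT x IKKbfl/fl replicate 1 and IKKbfl/fl replicate 3 together. The heat shock gene Hspa1b averaged 1655 ± 136 CPM in Pax7 Cre ErT x IKKbfl/fl mice and 645 ± 183 CPM in IKKbfl/fl mice (log2 fold change 1.40, adjusted p = 0.308). Hspa1a averaged 1870 ± 126 CPM in Pax7 Cre ErT x IKKbfl/fl mice and 817 ± 205 CPM in IKKbfl/fl mice, the related Hsph1 37.1 ± 8.07 CPM in Pax7 Cre ErT x IKKbfl/fl mice and 16.6 ± 2.52 CPM in IKKbfl/fl mice, and Jun 2997 ± 440 CPM in Pax7 Cre ErT x IKKbfl/fl mice and 2342 ± 368 CPM in IKKbfl/fl mice, of which Jun overlapped between the genotypes. Hspa1a and Hspa1b are near-identical copies whose reads the counting could split. Both lists were higher on average in the genotype in which Ccn1 was higher, and their part in its difference was not tested.

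**Figure D5:**
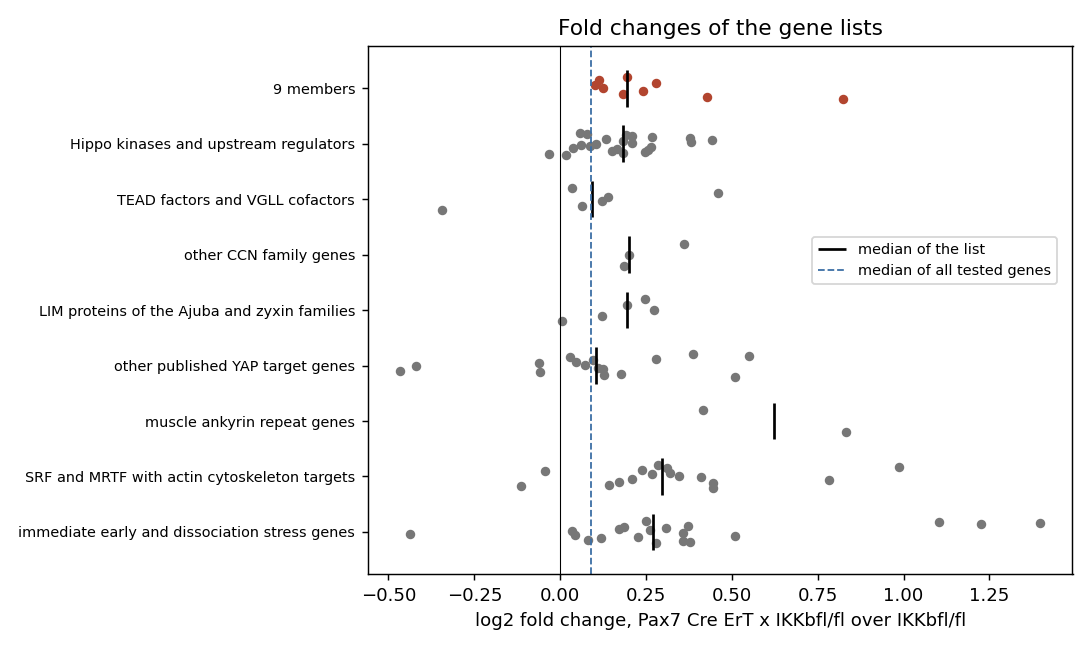
Each point is 1 tested gene at its log2 fold change of Pax7 Cre ErT x IKKbfl/fl over IKKbfl/fl, grouped by list, with the 9 members on top. Black lines are list medians and the dashed line is the median of all tested genes, 0.09. The medians run from 0.09 in the TEAD and VGLL list to 0.62 in the 2 muscle ankyrin repeat genes.

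Ccn1 was also set against the summed levels of the lists, a ratio chosen after the values were seen. As a share of the pericyte and smooth muscle marker sum, Ccn1 was 6.18%, 5.23% and 4.51% in Pax7 Cre ErT x IKKbfl/fl libraries, against 4.08%, 4.02% and 2.78% in IKKbfl/fl libraries. As a share of the endothelial sum it was 7.99%, 7.75% and 6.04% in Pax7 Cre ErT x IKKbfl/fl libraries, against 4.63%, 4.16% and 3.20% in IKKbfl/fl libraries. Neither pair of sets overlapped, but neither did Ccn1 in CPM, so this is no separate observation. Rgs5 made up most of the pericyte and smooth muscle sum, with 6911 of 10197 CPM in Pax7 Cre ErT x IKKbfl/fl replicate 1. As a share of the SRF list it was 8.01%, 6.98% and 5.56% in Pax7 Cre ErT x IKKbfl/fl libraries, against 5.63%, 5.23% and 3.11% in IKKbfl/fl libraries, and of the immediate early list 2.61%, 3.54% and 2.11% in Pax7 Cre ErT x IKKbfl/fl libraries, against 2.20%, 2.07% and 1.68% in IKKbfl/fl libraries. Both of these overlapped. As a share of the fibro-adipogenic progenitor sum Ccn1 was 7.73%, 13.9% and 11.5% in Pax7 Cre ErT x IKKbfl/fl libraries, against 9.21%, 9.72% and 3.56% in IKKbfl/fl libraries, which overlapped too. Ccn2 overlapped against all of the 5 lists used. Myofibre markers summed to 2005 to 2834 CPM in Pax7 Cre ErT x IKKbfl/fl libraries and 973 to 1632 CPM in IKKbfl/fl libraries, and all 12 of them had the higher mean in Pax7 Cre ErT x IKKbfl/fl mice, 8 without overlap. Of the 13 pericyte and smooth muscle markers, 13 had the higher mean and 6 did not overlap, and of the 12 endothelial markers 8 had the higher mean and 0 lay apart. Over all tested genes, 8.69% were higher without overlap. Since the pericyte and smooth muscle list shares Acta2, Tagln, Cnn1 and Myl9 with the SRF list, their counts are not independent. The pericyte gene Rgs5 averaged 7506 ± 1085 CPM in Pax7 Cre ErT x IKKbfl/fl mice and 6340 ± 887 CPM in IKKbfl/fl mice, and the titin gene Ttn 1452 ± 136 CPM in Pax7 Cre ErT x IKKbfl/fl mice and 897 ± 231 CPM in IKKbfl/fl mice. Of the 12 fibro-adipogenic progenitor markers 9 had the higher mean, with a median log2 fold change of 0.39, 1 without overlap and 5 at an unadjusted p under 0.05, and their sum was 4046 to 8154 CPM in Pax7 Cre ErT x IKKbfl/fl libraries and 4162 to 6222 CPM in IKKbfl/fl libraries. The 2 markers of highest level, Dcn and Gsn, had log2 fold changes of -0.06 and 0.08, and their genotypes overlapped. Dcn, Ly6a and Cd34 had the lower mean in Pax7 Cre ErT x IKKbfl/fl mice. The 1 without overlap, named after its values were seen, was the collagen gene Col1a1. It had 224, 110.5 and 56.6 CPM in Pax7 Cre ErT x IKKbfl/fl mice, against 32.6, 52.5 and 34.8 CPM in IKKbfl/fl mice. Of the 8 Schwann cell markers 8 had the higher mean, with a median of 0.27 and 2 without overlap, and their sum was 1023 to 1297 CPM in Pax7 Cre ErT x IKKbfl/fl libraries and 942 to 1009 CPM in IKKbfl/fl libraries. Macrophage markers summed to 662 to 957 CPM in Pax7 Cre ErT x IKKbfl/fl libraries and 506 to 1352 CPM in IKKbfl/fl libraries. Of the 8 tenocyte markers 8 had the higher mean, with a median of 0.21. The lists of blood cells had medians below 0. The higher mean was seen for 0 of 6 tested neutrophil markers, 0 of 7 erythroid genes and 2 of 6 tested T and B cell markers. Their medians were -0.44, -0.89 and -0.18. The part of these cell types in the members' levels was not tested.

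Genes with the pattern most like a member over the 6 libraries were taken from 9427 tested genes with a mean of at least 10 CPM, by the root mean square difference of centred log2(CPM + 1) values. For Ccn1 they were Cdh6 at 0.084, F8 at 0.094 and Siah2 at 0.119. Tead1 was only 653rd in that order at 0.34, and Ccn2 1165th at 0.37. Ccn2 was most like C630043F03Rik (0.110), Spats2l (0.111) and Cfap20 (0.125), and Ankrd1 most like Pdlim7 (0.064), Nxn (0.097) and Lgals3bp (0.099). The Ankrd1 values rest on an estimated 5 to 33 reads per library, a counting SD of 17.4% to 44.7%. Counting error therefore limits what its nearest genes can show. Amotl2 was nearest to Igf2 (0.035), Tmem250-ps (0.037) and Zxdc (0.038), Yap1 to Crybg3 (0.022), Neurl1b (0.027) and Tor1aip1 (0.030), and Tead1 to Nfat5 (0.037), Gpc6 (0.037) and Nfib (0.045). Among the members themselves, Lats2 was 119th for Yap1 at 0.072 and 461st for Amotl2 at 0.12. With 6 libraries such likeness is a description of these mice.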

How the data were processed

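RNA-seq libraries of 6 mice were made with a strand-specific kit, per the labels' protocols. The values deposited by the authors are CPM for 17030 genes, with 0.0001 added to each, which was subtracted. The submitters' processing notes name Partek, DESeq2 and mm10 without their roles; how reads were aligned and counted, and with which annotation, is not given in the sources used here. Depth was estimated from the smallest step between low values, the CPM of 1 read. Of values up to 20 reads, 92.9% to 93.9% were whole within 0.05 read, under the 95% required to recover reads, so no count test was run. Of the 54 values of the members, 49 were whole within 0.05 read. The read numbers given for single genes are therefore estimates, as are the counting SDs and Poisson intervals that rest on them.

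The genotype difference was fitted by limma 3.58.1 (R 4.3.3) to log2(CPM + 1), with a mean-variance trend, over 14763 genes that reached 1 CPM in 3 or more libraries, and p-values were adjusted by Benjamini-Hochberg over all of them. The fit was tested on simulated data with the same extra spread between libraries for all genes and no library that stood apart. That test does not cover a library such as IKKbfl/fl replicate 3, and nothing is read from it here. Fold changes understate those of genes near 1 CPM. Exon and coding lengths are from GENCODE M21, and promoter windows from RefSeq (GRCm38.p6). Positions are those of the deposited table, whose ends lie 1 base past the RefSeq end for 5 of the 9 members. Replicates were numbered by record order.

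The members and lists were chosen with earlier results of these data known. Named in each pathway list were the 3 genes with the smallest unadjusted p and the 1 with the highest mean CPM, in each cell type list at most the 2 with the highest mean CPM, and for 6 members the 3 genes most like them. Col1a1 was named after its values were seen. Alternatives were other scalings, pseudocounts (0.1 and 5), filters (none and 5 CPM), array weights, no trend, and leaving out libraries.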

Additional observations from a re-analysis of the deposited data

How the results depend on the processing

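No paired analysis was possible because mice were numbered by record order, which pairs none of them. The number of genes called higher was 0 under all alternatives run. The number called lower, 1 with all libraries, was 2 with no filter, 0 to 1 when 1 library was left out, and 2 without Pax7 Cre ErT x IKKbfl/fl replicate 1 and IKKbfl/fl replicate 3 together. Other scalings put the median log2 fold change of all genes, 0.089 as deposited, at 0.007 with TMM factors, 0.003 with median-of-ratios factors, 0.004 with quantile normalization and 0.04 without haemoglobin genes, so changes of that size depend on the scaling. With TMM factors Ccn1 was at 0.74, Wwtr1 at 0.01, Lats2 at 0.02 and Yap1 at 0.04.

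The sign of Wwtr1 reversed to -0.019 with array weights and to -0.060 without IKKbfl/fl replicate 3 and Pax7 Cre ErT x IKKbfl/fl replicate 1 together; with 1 library left out it ran between -0.063 (without IKKbfl/fl replicate 3) and 0.24. Without the pair, Yap1 was at -0.042 and Tead1 at 0.064, the median of the other CCN genes at -0.069, of the YAP targets at -0.026 and of the ankyrin repeat genes at 0.17, Ccn3 at -0.080, Ccn4 at -0.069, Zyx at -0.040 and Pax7 at -0.084. With 1 library left out, the median of the YAP targets ran between -0.024 (without Pax7 Cre ErT x IKKbfl/fl replicate 1) and 0.20, and Ccn3 between -0.12 (without the same library) and 0.39. The median of the TEAD and VGLL list was -0.021 with quantile normalization. Ikbkb ran between -0.094 and 0.021 (without IKKbfl/fl replicate 2).

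Limd1, Vgll4 and Pax7, which lay near 0 with all libraries, changed sign most often. Limd1 was at -0.084 with TMM factors, -0.088 with median-of-ratios factors, -0.048 without haemoglobin genes and -0.039 with quantile normalization, and ran between -0.037 and 0.048 with 1 library left out. Vgll4 was at -0.055, -0.060, -0.020 and -0.037 under the same 4 scalings, and ran between -0.038 and 0.077 with 1 library left out. Pax7 was at -0.013 with TMM factors, -0.017 with median-of-ratios factors, -0.019 with quantile normalization and -0.15 with array weights, and ran between -0.18 (without IKKbfl/fl replicate 3) and 0.28 with 1 library left out. The cause of these reversals was not tested.

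Per kb of coding sequence 5 members kept their rank. Ankrd1 has no value with the filter at 5 CPM. Depth limits Ankrd1, at an estimated 5 to 33 reads per library. Groups of 3 are too small to test a single library as an outlier.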
